A study of Mus musculus with 5 samples.

Results

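The genes described here build the intercalated disc, the junction through which heart muscle cells are joined end to end, and were chosen by name for that role. They are 10 genes (Gja1, Gjc1, Dsp, Jup, Pkp2, Dsg2, Dsc2, Cdh2, Ctnna3 and Tjp1) of 22180 genes with a probe set that the platform annotation assigns to a single symbol, and each was represented by its probe set with the highest mean signal over all 5 arrays. Heart RNA was measured on 2 arrays of Akita mice (replicates 1 and 3) and 3 arrays of wild type mice (replicates 3, 4 and 5). The Akita mice carry a mutation in the Insulin 2 gene, written Ins2+/- in the labels, which also call them a type 1 diabetic model. Both groups were males of the C57BL/6 background aged 12 weeks, and no treatment is named. Whether the samples are separate animals is not stated in the labels, and each p-value therefore reflects only how far these samples differ, a spread that may include technical variation. The RNA came from heart tissue with all its cell types, so that fewer cells of a type and less RNA per cell cannot be told apart.

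As background, 3 kinds of contact meet in the disc. Desmosomes hold cells together through the cadherins desmoglein and desmocollin, whose tails bind plakoglobin and plakophilin, and these in turn bind desmoplakin, the anchor of desmin filaments. Adherens junctions use N-cadherin and catenins to anchor actin of the last sarcomere, and gap junctions of connexins pass the electrical impulse from cell to cell. In heart muscle the adhesive contacts are partly merged into a mixed structure, the area composita, and inherited defects of desmosomal genes cause arrhythmogenic cardiomyopathy in people.

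None of the 10 genes passed the test between the groups (limma, adjusted p under 0.05 over 15528 genes), where 0.328% of all genes tested did, and 1 of them, Dsg2, had an unadjusted p under 0.05, where 13.6% of all genes did (4.13% higher and 9.49% lower in Akita). All 10 lay above the filter on dim genes. The values, on the log2 scale, fell into 3 patterns. Dsg2 and Dsc2, the desmosomal cadherins, lay higher in both Akita arrays than in each wild type array, Dsp lay lower in both, and the other 7 genes overlapped between the groups. Thus 3 of 10 genes (30%) had groups that did not overlap, near the 29.7% of all genes tested, of which 9.89% lay higher and 19.9% lower in Akita. This sorting depended on how the arrays were scaled. With arrays centred on the medians of the genes tested, a setting chosen after seeing the data, Dsp overlapped and 6 genes (Cdh2, Ctnna3, Dsc2, Dsg2, Gja1 and Tjp1) lay higher without overlap. With arrays centred on the medians of all probe sets, Dsg2 lay higher and Dsp and Gjc1 lower without overlap, and Dsc2 overlapped. The log2 difference, Akita minus wild type, had a median of 0.0017 over the 10 genes and -0.032 over all genes tested. Unadjusted 95% intervals of the single genes were taken from the values as deposited. Expressed as fold of Akita over wild type, the highest upper limit was 1.45 (Dsg2) and the lowest lower limit 0.662 (Gjc1). With arrays centred on the genes tested the log2 difference of Dsg2 was 0.39, so these limits hold only for the deposited scaling.

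**Figure D1:**
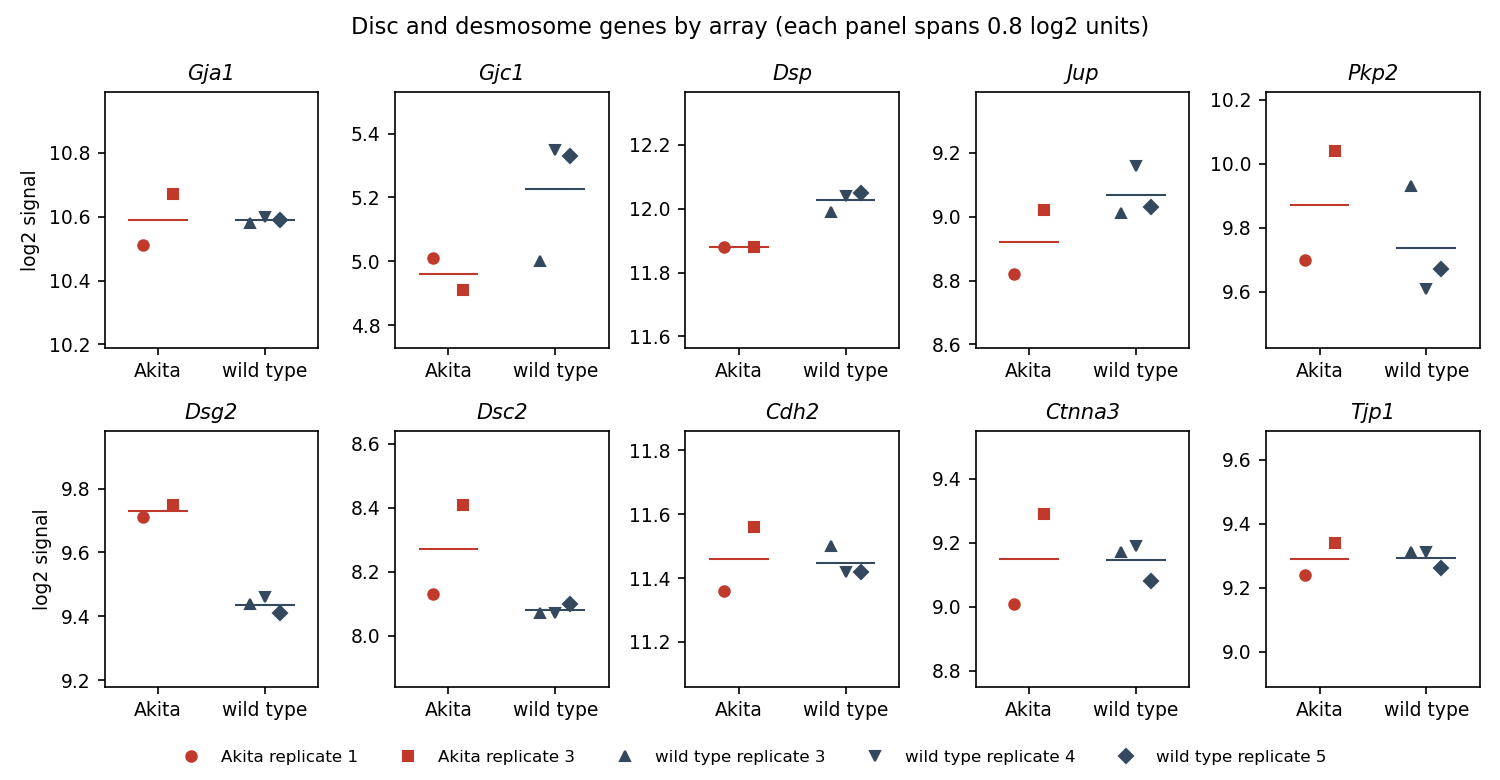
Log2 signal of each of the 10 genes (vertical axis, each panel spanning 0.8 units) in the Akita arrays (red, left) and the wild type arrays (dark, right), 1 point per array, with horizontal lines at the group means. Dsg2 and Dsc2 lie higher in both Akita arrays, Dsp lies lower in both, and in the other 7 panels the groups overlap.

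Desmosomal cadherins span the gap between neighbouring cells, and Dsg2 and Dsc2 are the forms used by heart muscle. Dsg2 had log2 signals of 9.71 in Akita replicate 1 and 9.75 in Akita replicate 3, against 9.44, 9.46 and 9.41 in wild type replicates 3, 4 and 5. Both Akita values lay clear of the wild type range, and the arrays within each group were close together. The difference was 0.29 (SE 0.10, 95% interval 0.051 to 0.54), or 1.23-fold, with an unadjusted p of 0.0240 and an adjusted p of 0.300 by limma. A second, dimmer probe set of Dsg2 read 4.89 and 4.82 in the Akita arrays, against 4.92, 4.66 and 4.83 in wild type, a difference of 0.052 with overlapping groups. With the mean of both probe sets the difference of Dsg2 was 0.17.

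Dsc2 had log2 signals of 8.13 in Akita replicate 1 and 8.41 in Akita replicate 3, against 8.07, 8.07 and 8.10 in wild type. Akita replicate 1 lay just above the highest wild type array and replicate 3 well above it. The log2 difference was 0.19 (SE 0.12, 95% interval -0.097 to 0.48, limma adjusted p = 0.543), or 0.050 without Akita replicate 3 and 0.33 without Akita replicate 1. Dsc2 and Dsg2 stand at opposite sides of the desmosomal cadherin cluster of the mouse genome, with Dsc1, Dsg1c, Dsg1a, Dsg1b, Dsg4 and Dsg3 between them in the RefSeq gene order and Dsc3 beside Dsc2. Those 7 genes, which serve mostly skin and other layered epithelia, all had mean signals under the filter of 4.06. At these dim levels Dsg1a and Dsg4 lay higher in both Akita arrays than in each wild type array, and the rest overlapped. The log2 differences were 0.60 for Dsg1a and 0.125 for Dsg4, and neither passed the filter for the main test. The neighbour beyond Dsg2, Ttr, the carrier of thyroid hormone and retinol, lay at 5.53 and 5.19 in Akita and at 4.92, 4.86 and 5.21 in wild type, with overlapping groups.

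The plaque proteins tie those cadherins to the cytoskeleton. Dsp encodes desmoplakin, which binds the desmin filaments. It had a log2 signal of 11.88 in both Akita arrays, against 11.99, 12.04 and 12.05 in wild type. The Akita arrays read the same and lay under all wild type arrays. The difference was -0.15 (SE 0.10, 95% interval -0.39 to 0.096, limma adjusted p = 0.580), or -0.053 with arrays centred on the genes tested and -0.23 with arrays centred on the medians of all probe sets. Its SD within groups, 0.026, stood at percentile 1.02 of all genes tested, so the moderated SE rests mainly on the spread shared by all genes.

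Jup encodes plakoglobin, an armadillo protein found in both desmosomes and adherens junctions. It had log2 signals of 8.82 in Akita replicate 1 and 9.02 in Akita replicate 3, against 9.01, 9.16 and 9.03 in wild type. Akita replicate 1 was the lowest array, while replicate 3 lay within the wild type range. The difference was -0.15 (SE 0.12, limma adjusted p = 0.637), or -0.25 without Akita replicate 3 and -0.047 without Akita replicate 1. Pkp2 encodes plakophilin 2, which clusters desmoplakin at the membrane. Its log2 signal was 9.70 and 10.04 in Akita replicates 1 and 3, against 9.93, 9.61 and 9.67 in wild type. Akita replicate 3 was the highest array, but wild type replicate 3 stood above Akita replicate 1. The difference was 0.13 (SE 0.15, 95% interval -0.23 to 0.49, limma adjusted p = 0.749), and it was -0.037 without Akita replicate 3.

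**Figure D2:**
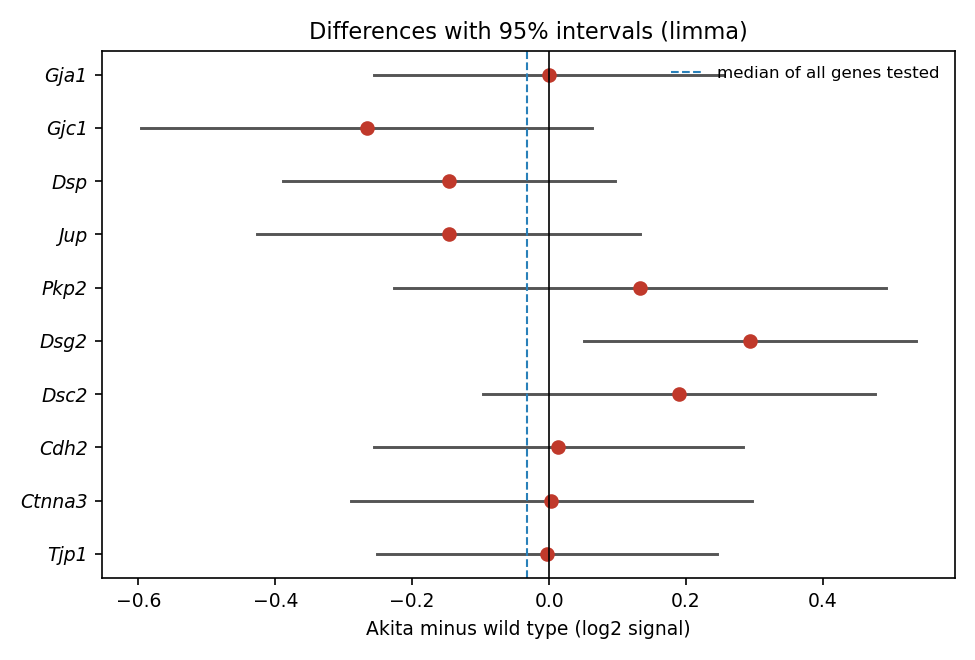
Log2 difference of Akita minus wild type (horizontal axis) for each of the 10 genes, as points, with 95% intervals from limma as bars and a dashed line at the median of all genes tested, -0.032. Of the 10 unadjusted intervals, that of Dsg2 leaves out 0.

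The connexins form the channels of the gap junction. Gja1 encodes Cx43, the main connexin of working ventricular muscle. Its log2 signal was 10.51 and 10.67 in Akita replicates 1 and 3, against 10.58, 10.60 and 10.59 in wild type. The Akita values stood on either side of a tight wild type group, and both group means were 10.59. The difference was 0.00 (SE 0.11, 95% interval -0.26 to 0.26, limma adjusted p = 1), an interval of 0.837 to 1.19 as fold. Gjc1 encodes Cx45, a connexin of the conduction system and the early embryonic heart. It had log2 signals of 5.01 in Akita replicate 1 and 4.91 in Akita replicate 3, against 5.0, 5.35 and 5.33 in wild type. Wild type replicate 3 lay between the Akita arrays, and the other wild type arrays stood above both. The difference was -0.27 (SE 0.14, 95% interval -0.60 to 0.063, limma adjusted p = 0.461), and it was -0.38 without wild type replicate 3. Of the 10 genes, Gjc1 had the widest range over the arrays, 0.44.

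For the adherens junction and the scaffold Tjp1 the group means were close. Cdh2, N-cadherin, had log2 signals of 11.36 in Akita replicate 1 and 11.56 in Akita replicate 3, against 11.50, 11.42 and 11.42 in wild type. The wild type arrays lay between the Akita arrays, and the difference was 0.013 (SE 0.12, 95% interval -0.26 to 0.28, limma adjusted p = 0.974). A second, dimmer probe set of Cdh2 read 9.07 and 8.88 in Akita, against 8.81, 8.82 and 8.84 in wild type, a difference of 0.15 with groups that did not overlap. The probe sets of this gene thus differed in whether the groups overlapped.

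Ctnna3 encodes alpha-T-catenin, an actin linker of the heart that also binds plakophilin 2. Its log2 signal was 9.01 and 9.29 in Akita replicates 1 and 3, against 9.17, 9.19 and 9.08 in wild type, a difference of 0.0033 (SE 0.13, limma adjusted p = 0.993). Tjp1 encodes ZO-1, a scaffold that binds the tail of Cx43 at the edge of gap junctions. It read 9.24 and 9.34 in Akita replicates 1 and 3, against 9.31, 9.31 and 9.26 in wild type, a difference of -0.0033 (SE 0.11, limma adjusted p = 0.992). In both genes the Akita arrays stood on either side of the wild type range.

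Start-site sequences of 5 of the 10 genes (Dsp, Gja1, Jup, Ctnna3 and Tjp1) were matched in the RefSeq promoter table of build GRCm38.p6. Those of Dsp, lower in both Akita arrays, and of Gja1, level between the groups, are shown to set the desmosomal anchor beside the gap junction gene. Each is the 250 bases before the RefSeq start, on the plus strand, at chr13:38151044-38151293 for Dsp and chr10:56377050-56377299 for Gja1. Capitals mark matches, on both strands, to GGGCGG, the GC box, and to TGANTCA, the AP-1 motif.
Dsp: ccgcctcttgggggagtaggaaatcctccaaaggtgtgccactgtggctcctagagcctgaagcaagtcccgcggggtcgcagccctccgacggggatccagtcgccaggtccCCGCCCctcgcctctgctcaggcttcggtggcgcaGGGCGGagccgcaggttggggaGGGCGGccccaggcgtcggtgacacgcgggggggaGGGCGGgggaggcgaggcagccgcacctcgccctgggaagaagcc
Gja1: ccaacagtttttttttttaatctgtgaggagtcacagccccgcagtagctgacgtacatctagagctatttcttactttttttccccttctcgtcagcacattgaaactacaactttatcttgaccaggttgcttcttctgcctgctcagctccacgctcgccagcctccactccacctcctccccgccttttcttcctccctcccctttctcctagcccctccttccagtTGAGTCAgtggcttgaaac
The Dsp window held 4 matches to the GC box and 0 to the AP-1 motif, and was 72.4% G and C. The Gja1 window held 1 match to the AP-1 motif, 13 to 19 bases before the start, and 0 to the GC box, at 50% G and C. Of 32851 RefSeq windows of this length, 32.7% held the GC box and 6.75% the AP-1 motif. A match to TATAAA, the TATA box, was in neither window and in 12.4% of all windows. A match to CANNTG, the E-box, lay 18 to 23 bases before the Gja1 start, overlapping the AP-1 match by 2 bases; it was in 66.2% of all windows. These matches are letters only, and no binding was measured.

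Within the Akita group, the arrays differed from each other in most of the 10 genes. Replicate 3 read higher than replicate 1 in 8 of 10 genes, the same in Dsp and lower in Gjc1, where 58.5% of all genes tested and 69.9% of the brighter genes (at or above the 50th percentile of mean signal) read higher in replicate 3. In 5 genes (Gja1, Pkp2, Cdh2, Ctnna3 and Tjp1) replicate 1 lay below the wild type mean and replicate 3 above it. The median of array minus wild type mean over the 10 genes was -0.083 in Akita replicate 1 and 0.097 in replicate 3. Over the brighter genes the same medians were -0.14 and -0.02.

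Markers of some other cell types also differed between the Akita arrays or from wild type, and their part in the disc genes was not tested. Endothelial markers averaged 8.65 and 8.85 in Akita replicates 1 and 3, against 8.565 to 8.74 in wild type. For smooth muscle the means were 8.39 and 8.92, against 8.55 to 8.64. Macrophage markers averaged 6.87 and 7.205, against 7.10 to 7.27. The 8 of 8 measured markers of atrial myocytes had a mean log2 signal of 7.66 in Akita replicate 1 and 10.1 in replicate 3, against 7.84 to 7.96 in wild type. Myl7, an atrial myosin light chain, read 6.55 and 10.36 in those Akita arrays and 7.83 to 8.10 in wild type. The 8 of 8 fibroblast markers averaged 8.65 and 9.24 in Akita replicates 1 and 3, against 8.57 to 8.70. The 9 of 10 markers of epicardium and mesothelium, a surface layer that itself has desmosomes, averaged 5.42 and 5.93, against 5.37 to 5.41. For surface epithelium, 4 of 7 markers passed the filter on dim genes and averaged 4.74 and 4.67 in Akita, against 4.5 to 4.67 in wild type, while Epcam lay under the filter. For the conduction system, where Gjc1 is used, 6 of 7 markers averaged 5.58 and 5.91 in Akita replicates 1 and 3, against 5.80 to 5.86. These markers did not move together. Cacna2d2 read 4.98 and 6.61 in those Akita arrays, against 5.42 to 5.68 in wild type. Hcn4 and Cntn2 lay lower in both Akita arrays without overlap, where 19.9% of all genes tested did. Tbx3, Shox2 and Gja5 overlapped between the groups. Of 8 genes listed as white adipocyte markers, 5 passed the filter. Their mean was higher in both Akita arrays, at 6.91 and 7.18, against 6.76 to 6.78 in wild type. How specific each gene is to white adipocytes was not tested. Fabp4 was the brightest of them, at 11.91 in both Akita arrays. Of the 5, 4 lay higher and 1 lower at an unadjusted p under 0.05, and 0 passed the adjusted threshold of limma. Among all genes tested, 4.13% lay higher and 9.49% lower at that unadjusted p. The listed gene that lay lower was Slc36a2, at 6.54 and 6.70 in Akita, against 7.36, 7.29 and 7.02 in wild type. Adipoq and Lep lay under the filter, with overlapping groups.

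The general heart muscle markers stood slightly lower in Akita, with a median log2 difference of -0.10, which was -0.011 with arrays centred on the genes tested (4 higher and 5 lower) and -0.19 with arrays centred on the medians of all probe sets (0 higher and 9 lower). All 9 were measured, among them Tnnt2, Ryr2 and Ttn, and their mean was 11.97 in replicate 1 and 11.90 in replicate 3, against 12.01 to 12.10 in wild type. In 7 of these 9 the groups did not overlap, each lower in Akita, where 19.9% of all genes tested lay lower without overlap. This was 0 of 9 with centring on the genes tested and 7 of 9 with centring on array medians. All 9 are among the brighter genes, of which 2813 of 11092 lay lower without overlap. The median log2 difference of the brighter genes was -0.072. By limma, 0 of 9 passed the adjusted threshold and 0 had an unadjusted p under 0.05.

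**Figure D3:**
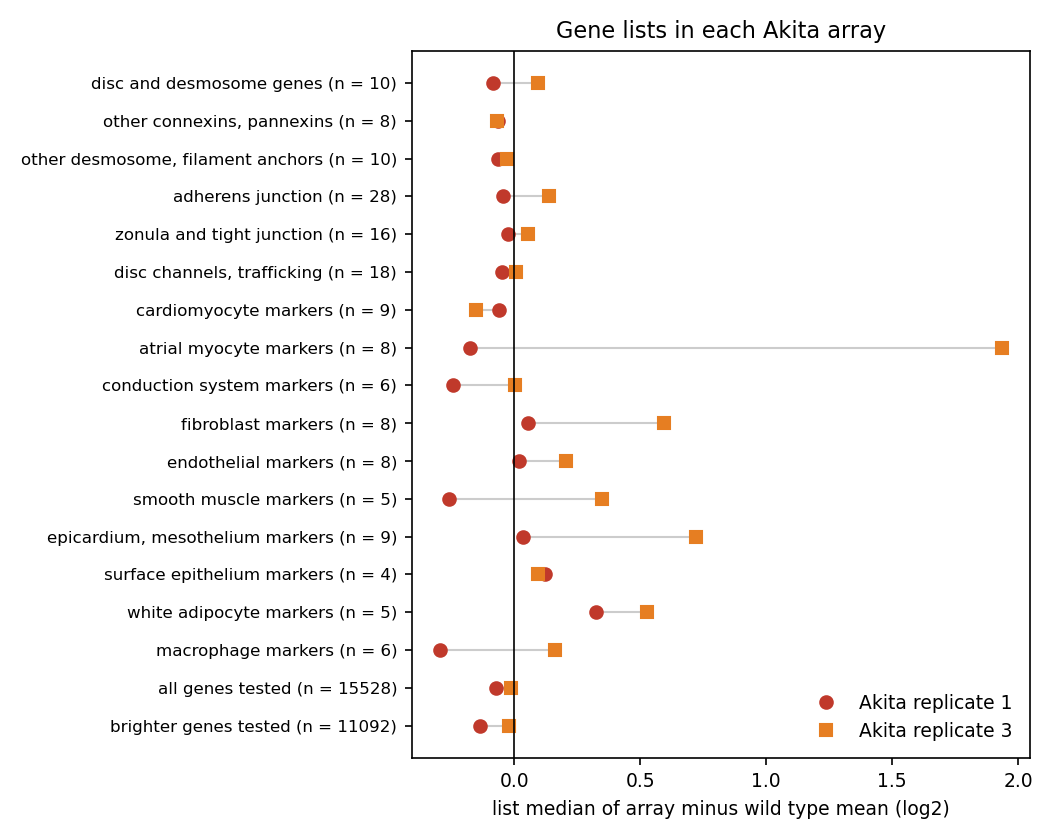
Median over each gene list of the array's log2 signal minus the wild type mean (horizontal axis), in Akita replicate 1 (circles) and Akita replicate 3 (squares), with the number of genes tested. The disc genes stand at -0.083 and 0.097, and atrial markers at -0.17 in replicate 1 and 1.94 in replicate 3.

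The wider junction held further genes, taken from 5 lists of junction genes that were set with earlier results of these data known. Of 108 listed genes, 80 were tested, 0 passed an adjusted p of 0.05 by limma, and 3 (3.75%) had an unadjusted p under 0.05, 1 higher and 2 lower in Akita. In 24 of the 80 (30%) the groups did not overlap, close to the 29.7% of all genes. Their median log2 difference was 0.037, against -0.032 over all genes tested, and it was -0.048 with arrays centred on the medians of all probe sets and 0.13 with arrays centred on the genes tested.

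Desmin, the filament protein that desmoplakin anchors, was one of the 3. Des had log2 signals of 11.71 in Akita replicate 1 and 11.70 in Akita replicate 3, against 12.06, 11.97 and 11.97 in wild type, with groups that did not overlap (log2 difference -0.29, SE 0.11, unadjusted p 0.0253, limma adjusted p = 0.303). Among the other 9 desmosome and filament genes tested, Pkp4, a plakophilin relative, read 8.91 and 9.13 in Akita, against 8.81, 8.78 and 8.67 (log2 difference 0.27, limma adjusted p = 0.391). Ppl, periplakin, read 6.12 and 6.14 in Akita, against 6.29, 6.42 and 6.38 (log2 difference -0.23, limma adjusted p = 0.399). Both stood apart from wild type in both Akita arrays, in opposite directions. Pkp1 and Evpl, of layered epithelia, had differences of 0.27 each with overlapping groups.

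Of the disc-associated channel and membrane-traffic genes, 18 of 22 were tested. Cav3, the muscle form of caveolin, had log2 signals of 6.73 in Akita replicate 1 and 6.92 in Akita replicate 3, against 7.31, 7.30 and 7.15 in wild type (log2 difference -0.43, SE 0.12, unadjusted p 0.00828, limma adjusted p = 0.218). Scn4b, a regulatory subunit of the cardiac sodium channel, read 6.48 and 6.64 in Akita, against 6.26, 6.18 and 6.11 (log2 difference 0.38, SE 0.12, unadjusted p 0.0126, limma adjusted p = 0.242). Neither pair of groups overlapped, and these had the smallest p-values of the wider junction genes. Kcnj2, an inward rectifier potassium channel, differed by -0.29 (limma adjusted p = 0.429), and Mapre1, a microtubule tip protein that helps deliver Cx43, by 0.19 (limma adjusted p = 0.513). Bin1, which shapes the transverse tubule membrane, differed by 0.19 with an adjusted p of 0.543 by limma.

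Among adherens junction genes, 28 of 31 were tested, 18 lay higher and 10 lower in Akita, with a median log2 difference of 0.055. Of all genes tested, 56.4% lay lower. The groups did not overlap in 8 adherens genes that lay higher and 3 that lay lower, where the shares over all genes were 9.89% and 19.9%. The catenins Ctnna1 and Ctnnb1, which link N-cadherin to actin, differed by 0.12 and 0.10 (limma adjusted p = 0.678 and 0.732). Xirp1, an actin-binding protein of the disc, read 9.42 and 9.39 in Akita, against 9.55, 9.66 and 9.69 in wild type (log2 difference -0.23, limma adjusted p = 0.414), while its relative Xirp2 differed by 0.042 (limma adjusted p = 0.911). Vcl, vinculin, differed by -0.045 with an adjusted p of 0.913. The smallest p-value of this list was that of Cdh4 (log2 difference -0.40, limma adjusted p = 0.380), before Xirp1. Cdh13 (-0.31), Tln2 (-0.22) and Zyx (-0.20) came after Xirp1, with limma adjusted p from 0.476 to 0.500. In Cdh4, Cdh13 and Tln2 the groups overlapped. The 8 genes that lay higher without overlap, Ctnna1 among them, had larger p-values than these.

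Of 21 other connexin and pannexin genes, 8 were tested and 9 lay under the filter on dim genes. Gja3, known best as a connexin of the lens, read 5.87 and 6.44 in Akita replicates 1 and 3, against 7.0, 6.54 and 6.46 in wild type with groups that did not overlap (log2 difference -0.51, SE 0.22, limma adjusted p = 0.368). Gja5, the connexin of atrium and conduction system, read 4.77 and 4.90 in Akita, against 4.87, 4.69 and 4.96, a difference of -0.005 with overlapping groups. Gja4, a connexin of vessel endothelium, differed by -0.14 (limma adjusted p = 0.694). Panx2, Gjb1 and Gjd3 differed by -0.16, 0.14 and 0.13, each with overlapping groups. Akita replicate 3, with its high atrial markers, read within the wild type range for Gja5. The signal of Gja5 was dim, at percentile 20.5 of the genes tested. Whether its probe set responds to atrial content was not tested.

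Of tight junction and zonula genes, 16 of 17 were tested, with 11 higher and 5 lower and a median of 0.06. Cldn5, the claudin of endothelium, had the smallest p-value of this list, at 5.70 and 6.56 in Akita, against 5.38, 5.92 and 5.64 (log2 difference 0.48, SE 0.26, limma adjusted p = 0.470). Ocln, occludin, differed by 0.31 (limma adjusted p = 0.491) and read 4.89 and 5.48 in Akita, against 4.96, 4.86 and 4.80. In both genes Akita replicate 3 alone lay above the wild type range. Cldn15, Esam and F11r differed by 0.26, -0.14 and -0.12, with overlapping groups.

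**Figure D4:**
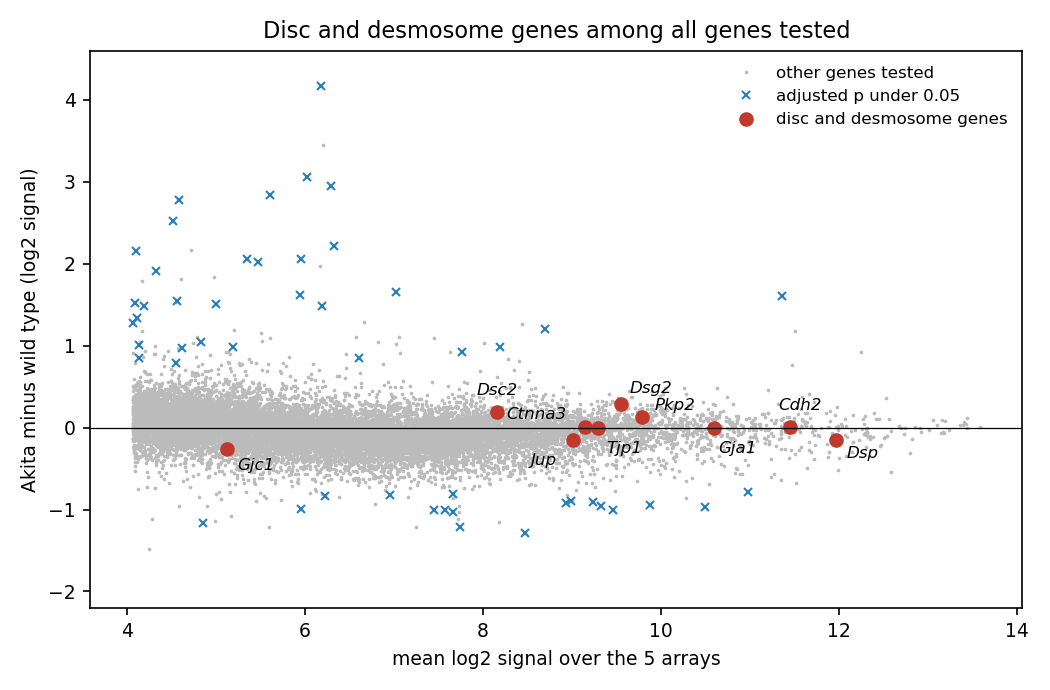
Log2 difference of Akita minus wild type (vertical axis) against the mean log2 signal over the 5 arrays (horizontal axis) for the genes tested, with the disc and desmosome genes as red points and genes of an adjusted p under 0.05 as blue crosses. The 10 named genes lie between -0.27 (Gjc1) and 0.29 (Dsg2), within the band of the other genes.

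Likeness of pattern was measured as the root mean square distance between log2 values over the 5 arrays, each gene centred on its own mean. Nearest to Gja1 among the tested genes outside the set were Akap6 (distance 0.0089) and Arhgef3 (0.011), and 3619 genes lay within 0.1 of it. Nearest to Gjc1, the widest ranging of the 10, were Mrpl3 (0.016) and Mrps18a (0.023), with 324 genes within 0.1. Among the 10 genes themselves, the closest pair was Gja1 and Tjp1, at 0.027, which encode Cx43 and its scaffold; the next was Cdh2 and Gja1, at 0.038. With 5 arrays such closeness is common, as those numbers of genes show.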

How the data were processed

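The authors deposited log2 signals, 1 per probe set and array, made with Affymetrix Expression Console per the submitters' processing notes; version, algorithm and genome build not given in the sources used here. A log2 scale was read from the value range, 1.27 to 13.66. Any scaling between arrays by the authors would hide a shift common to most genes. Of 41345 probe sets, 23521 had exactly 1 gene symbol. Array medians ran from 4.53 to 4.71, and precision is limited by how few arrays there are.

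The probe set with the highest mean stood for each gene, and those below the 30th percentile (mean signal 4.06) were dropped, leaving 15528. Akita minus wild type was fitted over all of them with limma 3.58.1 (lmFit and eBayes, two-sided, R 4.3.3) with Benjamini-Hochberg adjustment at 0.05, after a check on simulated data. Intervals are 95% from the moderated fit. The median SD within groups was 0.144. With 2 and 3 arrays the smallest one-sided p of an exact permutation test is 0.1, so none was used.

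The genes, lists and tests were chosen with earlier results of these data known. Named genes were the 10 members, the 5 smallest p-values of each list and fixed partners of the members. The 2 nearest in pattern of Gja1 and of the widest ranging member were named too. Epcam, Myl7, Ttr, Slc36a2, Adipoq, Lep and the named heart muscle markers were picked with their values in view. Some listed genes were not analysed here. Promoter windows came from RefSeq, GRCm38.p6. Alternatives are given at the end.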

Additional observations from a re-analysis of the deposited data

How the results depend on the processing

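No tested disc gene passed the adjusted threshold in any alternative run (filters, probe set rule, scaling, trend, weights, a threshold of 0.1 and each array left out); 10 were tested in each except the filter at the 50th percentile, which dropped Gjc1 and left 9. The smallest adjusted p was 0.118, for Dsg2 with an intensity trend and a robust prior. The number of calls over all genes, 51, became 86 without a filter, 84 with arrays centred on their medians, 30 when centred on the medians of the genes tested (chosen after seeing the data), 197 with the trend and robust prior, 28 with array weights and 96 at 0.1. It ran from 9 to 44 with an array left out, the lowest without wild type replicate 3, and was 14, 21 and 11 without wild type replicate 4 or 5 or Akita replicate 3. These calls split into 33 higher and 18 lower in Akita, against 41 and 43 with centring on array medians, and 25 and 5 with centring on the genes tested, while the median of all genes went from -0.032 to -0.12 and 0.062.

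The median difference over the 10 genes, 0.0017, was -0.083 and 0.096 under those centrings, and -0.083 to 0.097 with an array left out, the ends being without Akita replicate 3 and without Akita replicate 1. Dsg2, Dsc2, Dsp and Jup kept their direction in each alternative and Gjc1 in each that tested it. Dsg2 alone of the 10 had groups that did not overlap in every alternative. Groups that do not overlap stay apart when an array is left out, and filters, trend, weights and threshold do not alter overlap. For Dsg2, Dsc2 and Dsp, only the probe set rule and the scalings could therefore have changed overlap or direction. With centring on array medians and on the genes tested, Dsp and Jup each differed by -0.23 and -0.053, Dsc2 by 0.10 and 0.28, and Pkp2 by 0.048 and 0.23. Differences near 0 turned: Cdh2 was -0.068 with quantile normalization again, -0.072 with centring on array medians and -0.087 to 0.11 with an array left out. Ctnna3 was -0.082 with that centring, -4.1e-05 with array weights and -0.14 to 0.14 with an array left out. Tjp1 was 0.04 with quantile normalization again, 0.091 with centring on the genes tested and -0.053 to 0.047 with an array left out. Pkp2 ran from -0.037 to 0.30 with an array left out, and Gja1 from -0.085 to 0.094 over all alternatives. Of the 10 genes and the wider lists, 27 had groups that did not overlap, 17 with centring on array medians and 36 to 61 with an array left out, where fewer arrays overlap less by construction. The cause of the other changes was not tested. No paired analysis was made, and the replicate number 3 that the groups share was not taken to mark a pair. The chief limit is the number of arrays, 2 and 3.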
